A study of Mus musculus with 8 samples.

Results

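The genes described here encode the protein subunits of the mitochondrial respiratory chain and ATP synthase, in the nucleus accumbens (NAc) of male mice, sampled as micropunches. Members were all array genes named Nduf followed by a, b, c, s or v, Uqcr, Cox followed by a number from 4 to 8, or Atp5, together with Sdha, Sdhb, Sdhc and Sdhd. This rule took 90 of the 34797 gene names on the array, read by 134 of its 55681 probes. By their known roles, 36 of these genes encode subunits of complex I, 4 of complex II, 8 of complex III, 18 of complex IV and 15 of complex V. The 4 genes Ndufaf1 to Ndufaf4 encode assembly factors of complex I, and 5 names belong to none of these classes. The rule used gene names and no measured value, but it was chosen with earlier results of these data known.

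All mice were adult C3H/HeN males (spelled C3H/Hen in the labels), kept with cage mates of the same sex and condition after weaning on postnatal day 21. In the maternal separation (MS) group (n = 4), pups were separated daily from postnatal day 2 to 14, while their dams received chronic unpredictable stress. Control mice (n = 4) were left with their dams. Both groups had worked for sweetened milk in operant chambers and were fasted before sampling, so a response to fasting or to the milk that differs between the groups cannot be told apart from a direct effect of MS. Each mouse gave 1 array, and the labels do not say which mice were littermates. The identifiers of 3 of the 4 controls begin with the same number, as do those of 3 of the 4 MS mice with another, and the labels do not give its meaning. If these mice shared a litter or cage, the errors and p-values below do not account for it. All 8 arrays lay on 1 slide read in 1 scan, with 2 control and 2 MS arrays in each of its 2 rows.

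The respiratory chain lies in the inner mitochondrial membrane. Complex I (NADH dehydrogenase) and complex II (succinate dehydrogenase, also an enzyme of the citric acid cycle) pass electrons to ubiquinone. Complex III carries them to cytochrome c, and complex IV (cytochrome c oxidase) passes them to oxygen. Complexes I, III and IV pump protons, and complex V (ATP synthase) uses the proton gradient to make ATP, which neurons spend largely on ion pumping and synaptic transmission. All complexes except complex II also hold subunits encoded by mitochondrial DNA.

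Members were bright on these arrays: 132 of the 134 probes (98.5%) exceeded background clearly on each of the 8 arrays (well above background in the scanner output), against 54.0% of all probes. The exceptions were Cox8c, a testis isoform of a complex IV subunit, which no array showed well above background, and 1 of the 4 Ndufb5 probes. Thus 132 probes and 89 genes were tested, with a gene of several probes represented by its brightest. Over all probes, 57.3% to 69.7% per array were well above background, the highest share being that of control replicate 4 (the others reached at most 61.2%), and none was saturated. The 75th percentile of the processed signal, against which each array was scaled, ranged from 296 to 431. A level of 0 below thus means the 75th percentile of that array, and all levels and differences are on the log2 scale.

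No respiratory chain gene passed the adjusted threshold between MS and control mice. In limma's test, 0 of the 132 member probes had an adjusted p under 0.05, the smallest being 0.144. Only 1 of all 33111 probes (0.00302%) passed, so a count of 0 does not set the members apart. With the deposited values 375 of 31261 probes passed, and again 0 of the 132 member probes. Without adjustment, 2 of the 132 member probes (1.52%), one of Cox7a1 and one of Ndufv3, had a p under 0.05, against 14.1% of all probes. Among genes, 1 of 89 members (1.12%), Cox7a1, had a p under 0.05, where 13.8% of all genes did. Values of the groups did not overlap in 1 of 89 member genes (1.12%), Atp5sl, against 8.9% of all 22788 genes. Its known role is in assembly of the complex I membrane arm rather than in complex V (current symbol Dmac2). None of the 80 tested subunit genes separated the groups with this scaling. Other scalings brought members close to the share of all genes. With the deposited values 7 of 89 member genes did not overlap (7.87%, all genes 9.11%), among them Cox6a2, Ndufa11, Sdhd and Uqcrc1. With quantile normalization it was also 7 (7.87%, all genes 9.55%).

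The intervals were narrow for most subunits. The 95% confidence interval of the difference lay within 0.3 of 0 on the log2 scale, a 1.23-fold change in either direction, in 70 of 80 subunit genes (87.5%) and in 36.7% of all genes tested. Mitochondrial and cytosolic ribosomal proteins, read for comparison, had shares of 89.5% of 76 genes and 96.2% of 79 genes. A difference over 0.3 in size was found in 1 of the 80, Cox7a1, where 13.6% of all genes passed this size. The median size of the difference was 0.051 for subunits and 0.10 for all genes. The median SD within groups was 0.092 for subunits and 0.15 for all genes. Of the 80 differences, 47 were below and 33 above 0, with a median of -0.022, whereas scaling to the array median gave 30 below and 50 above 0 and a median of 0.026. The sign of so small a shift therefore depended on the scaling.

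**Figure D1:**
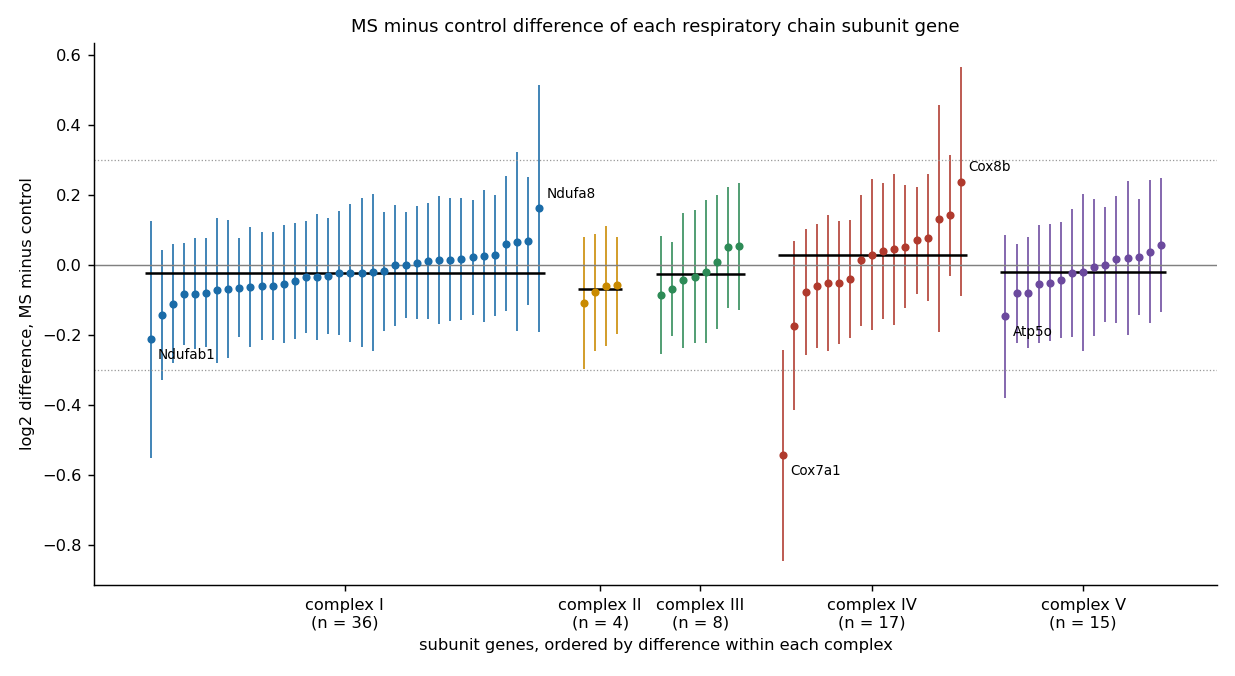
Difference in level between MS and control mice (log2, y axis) for each tested subunit gene, ordered within each complex (x axis), with points for the fitted difference, vertical bars for its 95% confidence interval, black lines for the median of a complex and dotted lines at 0.3 from 0. All bars but that of Cox7a1 cross 0, and 70 of the 80 lie between the dotted lines.

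Complex I accepts electrons from NADH. Its 36 genes had differences from -0.21 to 0.16 with a median of -0.022 (22 below 0, 14 above), and 32 of the 36 intervals lay within 0.3 of 0. The median was above 0, at 0.026, under scaling to the array median. The 7 subunits of the catalytic core, which hold the flavin and the iron-sulphur clusters, had a median difference of -0.053 and the 29 accessory subunits one of -0.021. In the core, Ndufs1 (the large iron-sulphur subunit) had a difference of -0.06 (standard error, SE, 0.08) and Ndufv1 (the NADH-binding subunit) one of 0.01 (SE 0.07). The extremes were accessory subunits, with Ndufab1, the mitochondrial acyl carrier protein, at -0.21 (SE 0.15) and Ndufa11 at -0.14 (SE 0.08) on one side. On the other side stood Ndufa8 at 0.16 (SE 0.16) and Ndufb10 at 0.07 (SE 0.08). The adjusted p of these 4 ranged from 0.474 to 0.752, and the widest intervals were those of Ndufa8 (-0.19 to 0.52) and Ndufab1 (-0.55 to 0.13).

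Complex II, encoded wholly in the nucleus, was the only complex with all genes on one side of 0. Its 4 differences ran from -0.11 to -0.06 with a median of -0.068, and they were below 0 under all 5 scalings, with medians from -0.091 to -0.020. Sdha, the flavoprotein that oxidises succinate, had levels of 4.54, 4.43, 4.61 and 4.43 in control replicates 1 to 4 and of 4.34, 4.52, 4.42 and 4.43 in the MS mice. Sdhb, the iron-sulphur subunit, had levels of 6.25, 6.22, 6.25 and 6.14 in controls and of 5.92 (replicate 1) to 6.22 in MS mice. In both genes the groups overlapped, and MS replicate 1 was the lowest mouse. The differences were -0.08 (SE 0.07, adjusted p = 0.69) for Sdha and -0.11 (SE 0.08, adjusted p = 0.607) for Sdhb, whose dimmer probe gave -0.10. Sdhd, a membrane anchor, read 4.42, 4.38, 4.42 and 4.38 in controls and 4.28, 4.33, 4.39 and 4.38 in MS mice (difference -0.06, SE 0.06, adjusted p = 0.725). The other anchor, Sdhc, had a difference of -0.06 (SE 0.08), while its second probe gave 0.02 (SE 0.18). Averaged over the 4 genes and set relative to the mean of the 8 arrays, the level was 0.08, 0.04, 0.06 and -0.03 in controls and -0.12, -0.004, -0.03 and 0.003 in MS mice. Control replicate 4 thus lay below 3 of the 4 MS mice.

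Complex III passes electrons from ubiquinol to cytochrome c. Its 8 genes had a median difference of -0.025 (5 below 0, 3 above), which was 0.022 under scaling to the array median, and all 8 intervals lay within 0.3 of 0. The core proteins Uqcrc1 and Uqcrc2 had differences of -0.08 (SE 0.07) and -0.07 (SE 0.06), and the Rieske iron-sulphur protein Uqcrfs1 one of -0.04 (SE 0.08). The small subunits Uqcr11 and Uqcr10 were at 0.05 (SE 0.08 in both). Cyc1, the haem-bearing cytochrome c1 of the same complex, which the naming rule did not take, had levels of 5.16, 5.15, 5.10 and 5.07 in controls and of 4.92, 4.97, 5.06 and 4.98 in MS mice. The groups did not overlap, as in 8.9% of all genes, and its difference of -0.14 (SE 0.06) had an adjusted p of 0.38.

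Complex IV reduces oxygen to water, and several of its nuclear subunits exist in a ubiquitous form and a form known from muscle, testis or lung. Both kinds were measured here. The 11 ubiquitous or single-form subunits had differences from -0.08 to 0.07 with a median of 0.014, and all 11 intervals lay within 0.3 of 0. Of the 7 tissue isoforms, 6 were tested, with differences from -0.54 to 0.24, and 1 of the 6 intervals lay within 0.3 of 0. Over all 17 tested genes the median was 0.030, with 10 above 0 and 7 below, while the deposited values gave -0.015.

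Cox7a1, the heart and skeletal muscle form of subunit 7a, had the largest difference of all members. Its levels were 0.62, 0.46, 0.23 and 0.59 in controls and -0.15, -0.28, 0.25 and -0.09 in MS mice. Controls were higher except that control replicate 3 lay just under MS replicate 3. The difference was -0.54 (SE 0.13, 95% interval -0.84 to -0.24), an MS level of 0.686 times the control level, with an adjusted p of 0.144. Within the slide rows it was -0.75 and -0.33. Over the alternatives tried it ranged from -0.65 to -0.44 and the adjusted p from 0.0378 to 0.371, and only eBayes with a trend and robust variance put it under 0.05. The ubiquitous partner Cox7a2 had levels of 5.40, 5.21, 5.47 and 5.42 in controls and of 5.24, 5.38, 5.58 and 5.49 in MS mice, a difference of 0.05 (SE 0.09). The Cox7a1 probe is shown because it carries this largest difference. It is listed at chr7:30970337-30970948 in build mm9, an interval of 612 bases for a probe of 60 bases, so the listed interval holds bases that are not in the probe.
Cox7a1 probe: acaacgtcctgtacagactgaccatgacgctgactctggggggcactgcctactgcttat

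The other isoform pairs had smaller differences. Cox6a1, the form of brain and liver, read 8.59, 8.65, 8.69 and 8.47 in controls and 8.64, 8.49, 8.79 and 8.64 in MS mice (difference 0.04, SE 0.09). Cox6a2, its heart and muscle form, read 1.43, 1.35, 1.46 and 1.25 in controls and 1.42, 1.47, 1.60 and 1.56 in MS mice. Of the MS mice, 3 lay above every control, and the difference was 0.14 (SE 0.08, 95% interval -0.03 to 0.32, adjusted p = 0.445). Cox8b, the muscle form of subunit 8, read -2.98, -2.63, -2.45 and -3.09 in controls and -2.59, -2.43, -2.53 and -2.65 in MS mice (difference 0.24, SE 0.14, adjusted p = 0.503). Its ubiquitous partner Cox8a had a difference of -0.05 (SE 0.08). Cox4i1 and the lung form Cox4i2 differed by 0.01 (SE 0.08) and 0.13 (SE 0.14). The testis forms Cox6b2 and Cox7b2 were at -0.17 (SE 0.11) and 0.08 (SE 0.08). Ndufa4, named for complex I but known as a subunit of complex IV, was at 0.07 (SE 0.07). The tissue isoforms therefore did not share a direction, with 2 differences below and 4 above 0.

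Complex V makes ATP. Its 15 genes had a median difference of -0.020 (9 below 0, 6 above), which was 0.027 under scaling to the array median, and 14 of the 15 intervals lay within 0.3 of 0. The catalytic head subunits Atp5a1 (alpha) and Atp5b (beta) both had a difference of 0.02 (SE 0.10 and 0.08). The 3 genes for the same c subunit of the rotor ring, Atp5g1, Atp5g2 and Atp5g3, had differences of -0.02, 0.02 and -0.08. The lowest was Atp5o, of the stalk that connects head and membrane part, at -0.15 (SE 0.10, adjusted p = 0.569), and the highest was Atp5k at 0.06 (SE 0.08).

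The 4 assembly factors of complex I had differences from -0.05 (Ndufaf3) to 0.10 (Ndufaf1, SE 0.13). Of the 5 remaining names, Cox7a2l, which helps join complexes III and IV into supercomplexes, was at 0.03 and Ndufa4l2 at 0.09. Cox4nb is now Emc8 and belongs to a complex of the endoplasmic reticulum (0.03). Atp5s (current symbol Dmac2l) was at -0.07 (SE 0.13). Atp5sl read 3.60, 3.58, 3.57 and 3.60 in controls and 3.39, 3.52, 3.56 and 3.49 in MS mice. Its groups were separate by a narrow gap, but not with normexp, the array median or quantile normalization, and its difference was -0.10 (SE 0.06, adjusted p = 0.548).

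Several genes were read by more than 1 probe, and these did not always give the same result. Of 30 such genes with 73 tested probes, 18 had probes with opposite signs, but the median range between probes of a gene was 0.072 and it passed 0.2 in 4 genes. Among these, the 3 Cox7c probes gave 0.05 (SE 0.08), 0.10 (SE 0.23) and -0.29 (SE 0.28), and the 3 tested Ndufb5 probes gave values from -0.11 to 0.19. The Atp5j probes gave -0.08 and -0.31 (SE 0.16). The probes at -0.29 (Cox7c), 0.19 (Ndufb5) and -0.31 (Atp5j) were dim, with mean levels of -3.36, -3.52 and -3.28 in controls. The brightest probes of these genes had mean levels of 5.14, 5.07 and 5.01. In at least 21 of the 65 pairs of probes of one gene the listed positions overlapped, so such pairs read partly the same bases. In the remaining 15 genes with opposite signs (Ndufa3, Ndufb2, Ndufb6, Sdhc, Uqcrb, Uqcrh, Uqcrq, Uqcr10, Cox7a2l, Cox8a, Atp5c1, Atp5g1, Atp5j2, Atp5k and Atp5l) the probes lay between -0.08 and 0.12. The range was widest, at 0.39, in Ndufv3, an accessory subunit of the NADH-oxidising module of complex I.

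The Ndufv3 probe that the array lists for 1 RefSeq transcript read 0.32, 0.18, 0.27 and 0.10 in controls and -0.04, 0.04, -0.06 and -0.19 in MS mice. All 4 controls lay above all 4 MS mice, and the difference was -0.28 (SE 0.08, 95% interval -0.46 to -0.10, adjusted p = 0.182). Within the slide rows it was -0.25 and -0.31. Of all member probes, 2 of 132 (1.52%) separated the groups, against 8.67% of all probes. The brightest Ndufv3 probe, listed for 2 RefSeq transcripts, read 6.09, 6.11, 6.12 and 5.96 in controls and 5.97, 6.07, 6.23 and 6.09 in MS mice (difference 0.02, SE 0.08, 95% interval -0.16 to 0.19). A further probe, listed for an Ensembl transcript, had a difference of 0.11 (SE 0.10). The difference between the probes was not itself tested. Over 17 alternatives the first probe stayed between -0.32 and -0.23 with adjusted p from 0.0946 to 0.496, and its groups did not overlap in 16 of them. It is listed at chr17:31665148-31665207 in mm9, and the brightest probe at chr17:31668209-31668268. The separating probe is printed because the other Ndufv3 probes did not show its difference.
Ndufv3 probe: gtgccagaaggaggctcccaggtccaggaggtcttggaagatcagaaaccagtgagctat

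**Figure D2:**
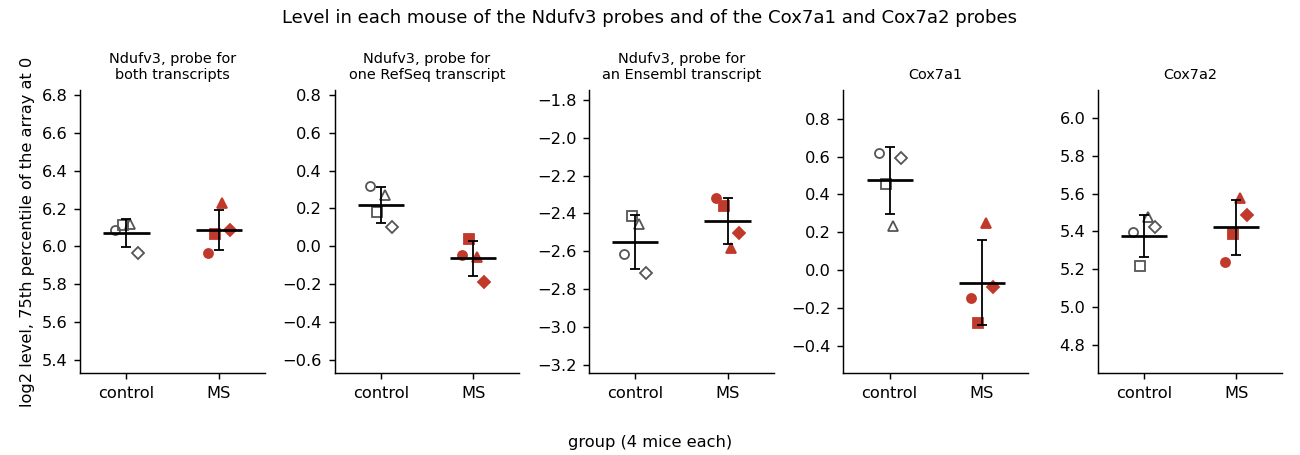
Level in each mouse (log2, relative to the 75th percentile of the array, y axis) for the probes on which the results turn, with open symbols for controls, filled symbols for MS mice and bars for the mean and SD of 4 mice. The Ndufv3 probe of 1 listed transcript separates the groups, whereas in Cox7a1 control replicate 3 (0.23) lies below MS replicate 3 (0.25).

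The mice differed more from each other than the groups did. Averaged over the 80 subunit genes and set relative to the mean of the 8 arrays, the level was 0.04, -0.01, 0.08 and -0.06 in control replicates 1 to 4 and -0.09, -0.06, 0.07 and 0.03 in the MS mice. The means differed by -0.022, while the SD was 0.064 in controls and 0.076 in MS mice. Within the first row of the slide the difference was -0.087 and within the second 0.042. Of the 80 genes, 67 had a difference below 0 in the first row and 20 in the second, and 19 in both. The slide rows thus gave opposite signs for the mean of complexes I, III, IV and V, but not of complex II (-0.12 and -0.03).

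**Figure D3:**
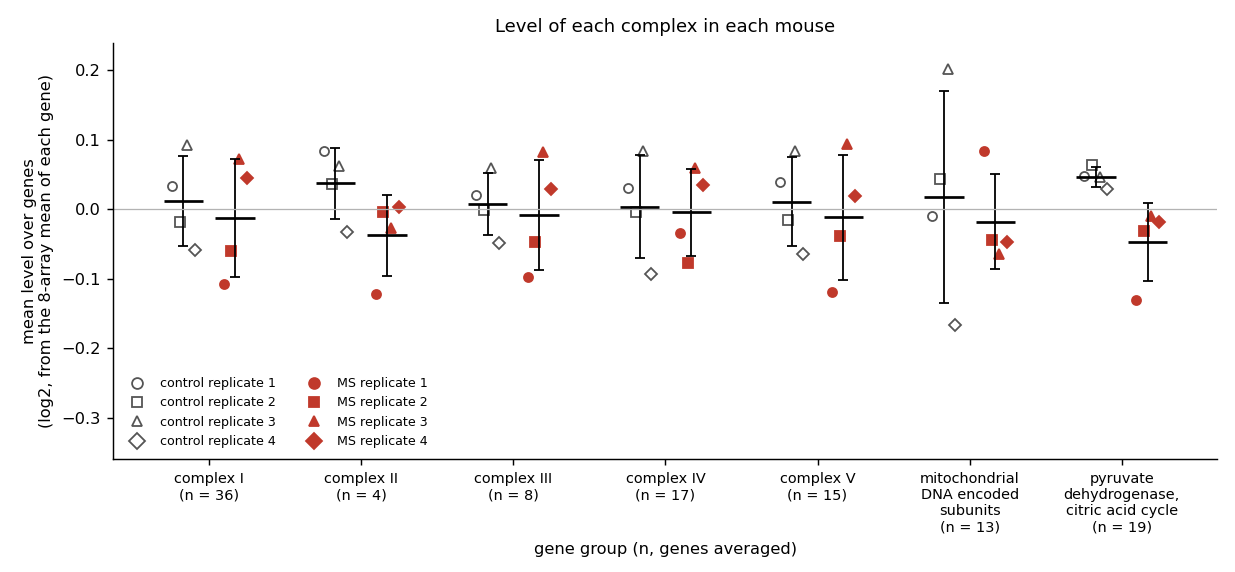
Mean level of each gene group in each mouse (log2, relative to the mean of the 8 arrays for each gene, y axis), with 1 symbol per mouse and bars for the mean and SD of 4 mice. Controls and MS mice overlap in all 5 complexes, and MS replicate 3 (0.07 over the subunits) and control replicate 3 (0.08) are the highest mice.

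Subunit genes varied together between mice. After removal of the group means, the mean pairwise correlation over the 8 mice was 0.50 among the 80 subunit genes and 0.009 among all genes tested. It was 0.61 within complex I and 0.59 within complex V, 0.34 within complexes III and IV, and 0.33 within complex II. Between complexes it was highest for I with V (0.59) and lowest for II with IV (0.29). Against the mean of the other subunits, 66 of the 80 genes had a correlation above 0.5, and 78 above 0. The exceptions below 0 were Cox6b2 (-0.24) and Sdhc (-0.12), and Cox7a1 was at 0.16. These values share the arrays and their scaling. With other scalings the subunit mean was 0.78 (array median, all genes 0.20), 0.48 (normexp), 0.29 (quantile) and 0.27 (deposited values). Cytosolic ribosomal proteins had a mean pairwise correlation of 0.70 among themselves and of 0.34 with the subunits, and mitochondrial ribosomal proteins had 0.27 and 0.36. Glycolytic genes had 0.43 and 0.41, and genes of pyruvate dehydrogenase and the citric acid cycle 0.26 and 0.28. Covariation with the subunits was thus not limited to the complexes.

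**Figure D4:**
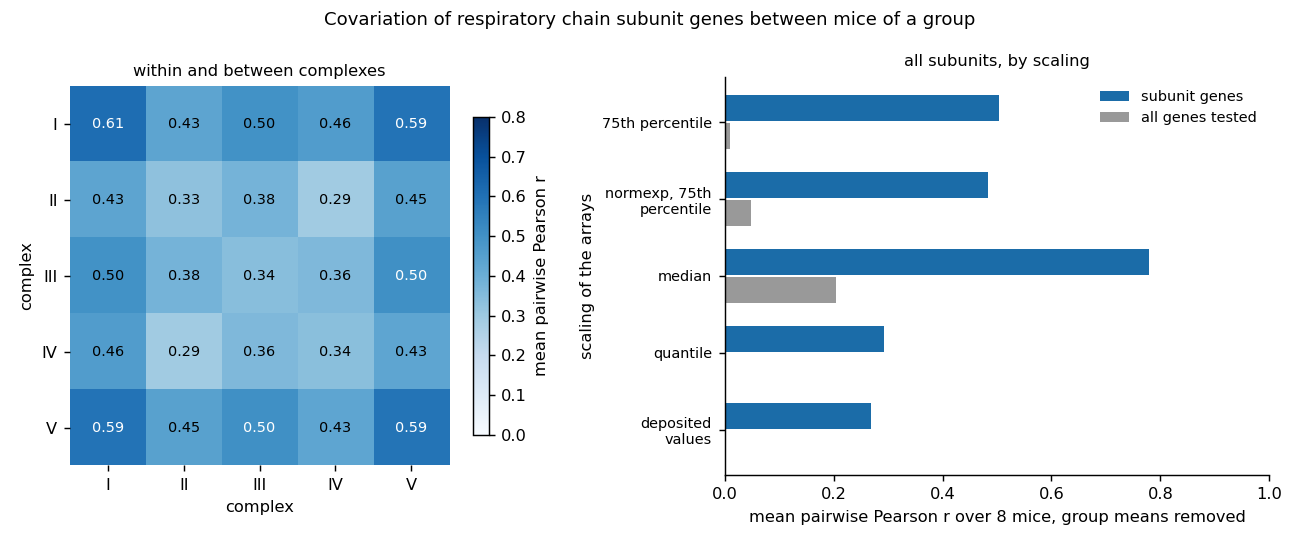
Mean pairwise Pearson correlation between genes over 8 mice with group means removed, at left within (diagonal) and between complexes I to V, as colour and value, and at right (x axis) over all subunit genes and all genes tested, as bars for each scaling. Complexes I and V are highest, at 0.61 and 0.59 within and 0.59 between them, and the subunit mean runs from 0.27 with the deposited values to 0.78 with the array median.

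Promoters of these genes are known for sites of the factors NRF1 and GABP. In RefSeq promoters of build GRCm38.p6, from 250 bases before to 50 bases after the start, 67 of the 81 subunit genes had an entry. The NRF1 motif is given by the longer runs of capitals in the Cox6a1 stretch printed here, with any base at the sixth position (the shortest run is an ETS match). Sought on both strands, the NRF1 motif was found in 17 of the 67 (25.4%) against 5.19% of all genes. The motif CCGGAAG of GABP and other ETS factors was sought in the same way and found in 16 (23.9%) against 9.93%. A motif of the factor YY1, also sought, was found in 4 (5.97%) against 0.755%. The median GC content was 57.5% over the promoters of subunit genes and 52.7% over all. The 250 bases before the start are printed for a complex IV isoform of brain, a complex II anchor and the muscle isoform with the largest difference, with motif matches in capitals. They lie at chr5:115348959-115349208 (minus strand), chr9:50603850-50604099 (minus strand) and chr7:30183921-30184170 (plus strand), in that order.
Cox6a1 promoter: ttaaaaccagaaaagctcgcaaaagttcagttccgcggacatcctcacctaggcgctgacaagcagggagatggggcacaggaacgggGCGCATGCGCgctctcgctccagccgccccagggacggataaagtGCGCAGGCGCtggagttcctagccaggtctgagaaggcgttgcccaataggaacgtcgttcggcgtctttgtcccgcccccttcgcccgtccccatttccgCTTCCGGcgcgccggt
Sdhd promoter: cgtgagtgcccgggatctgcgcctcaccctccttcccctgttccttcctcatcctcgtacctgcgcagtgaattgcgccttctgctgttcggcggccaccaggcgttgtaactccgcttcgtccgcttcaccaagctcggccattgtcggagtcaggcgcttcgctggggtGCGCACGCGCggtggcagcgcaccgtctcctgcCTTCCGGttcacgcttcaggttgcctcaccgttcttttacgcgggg
Cox7a1 promoter: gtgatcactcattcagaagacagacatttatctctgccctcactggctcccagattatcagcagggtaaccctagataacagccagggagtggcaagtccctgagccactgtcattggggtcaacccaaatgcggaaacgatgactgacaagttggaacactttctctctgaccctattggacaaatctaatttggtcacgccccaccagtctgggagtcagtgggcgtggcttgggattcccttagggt
The Cox6a1 stretch holds NRF1 matches that begin 162 and 117 bases before the start and an ETS match at 16 bases. Sdhd holds an NRF1 match at 79 and an ETS match at 46 bases, and the Cox7a1 stretch holds no match to the motifs sought. Of the 67 subunit genes, 35 held none of the NRF1, ETS and YY1 motifs, 27 held 1 and 5 held 2. Cox6a1 and Sdhd are among these 5, so they are not typical, and a promoter without a match was the more common case. A match is a run of letters and says nothing of binding in these mice.

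Other genes of energy metabolism were read from lists chosen by function. The 13 subunits encoded by mitochondrial DNA had a median difference of -0.042, from -0.08 (ND3) to 0.00 (ND6), with 0 of 13 under an unadjusted p of 0.05, and scaling to the array median gave 0.005. Cytochrome c (Cycs) was at -0.05. Among 39 tested assembly factors outside the naming rule, 25 were below 0 (17 under scaling to the array median) and the median was -0.025. Of these, 4 (10.3%, against 8.9% of all genes) did not overlap between groups, all lower in MS mice, namely Tmem126b (-0.21), Cox16 (-0.16), Surf1 (-0.15) and Tmem186 (-0.08). The highest was Atpaf1 at 0.10 (SE 0.19). The 18 regulators of mitochondrial biogenesis had a median of 0.051. Their extremes were Ppara at -0.66 (SE 0.51), where MS replicate 1 read -2.64 and the other 7 mice between -0.35 and -0.06, and Gabpa, a subunit of GABP, at 0.29 (SE 0.15). The coactivator Ppargc1a was at -0.24 (SE 0.13, adjusted p = 0.433), the mitochondrial transcription factor Tfam at 0.02 and Nrf1 at 0.11. Polg, the mitochondrial DNA polymerase, was at 0.15 (adjusted p = 0.351). Its groups did not overlap, which makes 1 of the 18 regulators (5.56%, against 8.9% of all genes).

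The enzymes of pyruvate dehydrogenase and the citric acid cycle, which feed the chain, were all on one side. All 19 had differences below 0, from -0.20 (Suclg2) to -0.02 (Ogdh), with a median of -0.079 where the median of all genes was -0.0001. Scaling to the array median left 14 of the 19 below 0 and a median of -0.032. None passed limma's adjusted threshold, and 2 of 19 (10.5%, against 13.8% of all genes) had an unadjusted p under 0.05 (Suclg2, a subunit of succinyl-CoA ligase, and Idh3a, of isocitrate dehydrogenase). Idh3a read 3.46, 3.60, 3.46 and 3.46 in controls and 3.22, 3.36, 3.41 and 3.28 in MS mice, without overlap (difference -0.18, SE 0.07, adjusted p = 0.307). Idh3b (-0.15) also did not overlap, which makes 2 of 19 (10.5%, against 8.9% of all genes), and citrate synthase (Cs) was at -0.05. The mean over the 19 genes was 0.05, 0.06, 0.05 and 0.03 in controls and -0.13, -0.03, -0.01 and -0.02 in MS mice. MS replicate 1, in the first slide row, thus lay well below the other MS mice. This mean differed by -0.14 within the first slide row and by -0.05 within the second. Glycolytic genes had a median of -0.061 (11 of 16 below 0), or -0.014 under scaling to the array median, from Aldoc, the aldolase typical of astrocytes, at -0.16 to Ldha at 0.10. Mitochondrial carriers, porins and creatine kinases had a median of 0.002 (-0.014 with quantile normalization and 0.050 with the array median), from Slc25a14 at 0.15 down to the aspartate and glutamate carrier Slc25a13 at -0.44 (SE 0.14, adjusted p = 0.217). Mitochondrial antioxidant enzymes had a median of -0.050, from Gpx4 at -0.14 to Gpx1 at 0.07, and one of -0.002 under scaling to the array median.

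Marker lists of the cells in the punches lay on different sides of 0. All 11 tested markers of medium spiny neurons, the main neurons of the NAc, were above 0, with a median difference of 0.35 and 4 of 11 at an unadjusted p under 0.05 (13.8% of all genes). Their mean level was -0.17, -0.08, 0.09 and -0.55 in control replicates 1 to 4 and ran from -0.03 to 0.28 in MS mice. Of 8 genes listed as markers of pallidal neurons, 7 (87.5%, against 8.9% of all genes) were below 0 without overlap between groups. Their median difference was -1.21, and their mean level was 0.23 to 0.94 in controls and -0.97 to -0.13 in MS mice. Which cells of the punch expressed these genes was not tested. The study names Pvalb and Npas1 of this list, and Agt of the astrocyte list, as affected by MS. The lists were written with earlier results of these data known, so their shares are not independent of the data. Of 8 astrocyte markers, 7 were below 0, with a median of -0.33, and their mean level was 0.12 to 0.47 in controls and -0.44 to -0.15 in MS mice. All 8 microglial markers (median -0.16; 7 with the array median) and 7 of 8 oligodendrocyte markers (median -0.17) were below 0, vessel markers had a median of 0.060, and 3 of 6 cortical excitatory markers were tested (all below 0). Control replicate 4 was the lowest mouse for spiny neuron markers and the highest for pallidal (0.94), astrocyte (0.47) and oligodendrocyte (0.28) markers. The defining striatal markers Drd1a, Drd2 and Ppp1r1b were well above background on all 8 arrays. No marker passed limma's adjusted threshold, where the smallest adjusted p was 0.0633 (Agt), but pallidal and astrocyte markers did so under other scalings. Of the pallidal markers, 6 passed with normexp, 5 with the deposited values and 2 with the array median, and of the astrocyte markers 3, 3 and 1. In such bulk tissue, fewer cells of a type and less RNA per cell cannot be told apart, and the part of the cell markers in the differences of Cox7a1, Ndufv3 and the citric acid cycle genes was not tested.

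**Figure D5:**
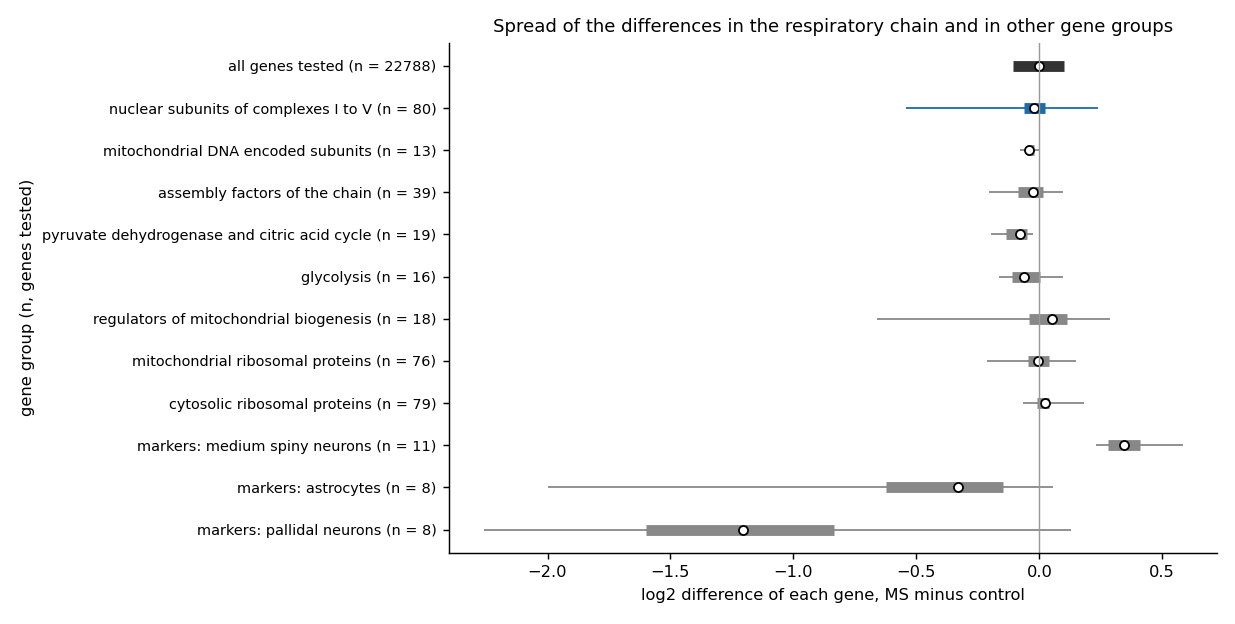
Differences between MS and control mice (log2, x axis) over the genes of each group (y axis), with circles for the median, thick bars for the quartiles and thin lines for the lowest and highest gene (not drawn for all genes tested). The 80 nuclear subunits have quartiles of -0.06 and 0.02, inside those of all genes (-0.11 and 0.10), while the medians of the medium spiny neuron, astrocyte and pallidal lists (0.35, -0.33 and -1.21) lie outside them.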

How the data were processed

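Total RNA (40 ng) from the NAc of each mouse was labelled with Cy3 and hybridised to 1 Agilent mouse array of 60-base probes. The deposited scanner files hold intensity values per spot, made by the authors with Agilent Feature Extraction 10.10.1.1, whose headers name build mm9. The software subtracted a fitted background surface in 100% of spots and gave the processed signal used here. The authors also deposited a table of normalized log2 values for 31261 probes, which held 132 member probes and served as an alternative. Every column of it had a median of 8.01, it followed the log2 mean signal within arrays (r of at least 0.9997), so its scale and direction are those of levels, and its normalization between arrays is not given in the sources used here. Among the tools in the submitters' processing notes is limma, without its version.

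Spots for control or with outlier flags were dropped and replicate spots averaged. Levels are the log2 processed signal after subtraction of the 75th percentile that each array had. A probe was tested if 4 or more of the 8 arrays showed it well above background, with limma 3.58.1 (lmFit, eBayes; two-sided) in R 4.3.3, with Benjamini-Hochberg adjustment over all 33111 probes and a threshold of 0.05. All differences were taken as MS minus control. The fit was checked on simulated data. Labels name separate mice but no litters, and only 4 arrays a group limit the precision.

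Gene names are those of the array, and all 90 member names were matched through an accession to RefSeq symbols (GRCm38.p6). The array design in the headers differs from that in the methods of the study. Genes named were those past the threshold, those without overlap (at most 16), the 2 highest and lowest of each complex, fixed subunits and isoforms, genes whose probes differ in sign, and the extremes of each list of pathway genes. The Suclg2, Idh3a and Idh3b values and those of single probes were added after their values were seen. Polg, Cox16, Surf1 and Tmem186 are not extremes of their lists and were named because their groups did not overlap. Members, lists and tests were chosen with earlier results of these data known. Alternatives were other scalings, filters, variance models, slide row or column as a block, other probe choices and leaving out each mouse. The values of 1 named subunit are not reported here.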

Additional observations from a re-analysis of the deposited data

Results flagged for a closer look

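In 6 of 118 groups of 4 mice (5.08%), 1 mouse stood apart from the other 3 by Dixon's test at the 95% level, where chance gives about 1 in 20. Values are the gap to the nearest mouse as a share of the range of the group. MS replicate 1 was lowest in Atp5j, a stalk subunit of ATP synthase (4.84 against 4.95, a share of 0.912), and in Ndufa4 of complex IV (4.98 against 5.14, 0.904). Control replicate 3 was highest in the ATP synthase membrane subunits Atp5j2 (6.59 against 6.44, 0.846) and Atp5l (6.60 against 6.37, 0.925). Control replicate 4 was lowest in Ndufa3 of complex I (5.96 against 6.09, 0.982) and in Uqcr11 of complex III (6.26 against 6.45, 0.889).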

How the results depend on the processing

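Over all probes, 1 passed the adjusted threshold as reported, against 490 with normexp background correction, 96 with scaling to the array median, 375 with the deposited log2 values and 504 with trend and robust variance in eBayes. It was 113 with probes well above background on all 8 arrays, 0 with no filter on dim probes (4851 at an unadjusted limma p under 0.05), 0 with slide column as a block (4079 unadjusted), and 0 to 37 without 1 mouse, the highest count being that without control replicate 3. Member probes stayed at 0 under all of these (1 to 5 unadjusted) except trend and robust variance, which called 1, the Cox7a1 probe (adjusted p = 0.0378). Member genes without overlap numbered 1 as reported (1.12%, against 8.9% of all genes), 0 with the array median (all genes 6.59%), 7 with quantile normalization (7.87%, all genes 9.55%), 7 with the deposited values (7.87%, all genes 9.11%) and 1 to 6 without 1 mouse, the 6 arising without control replicate 4 (6.74%, all genes 11.5%).

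The medians of the 5 complexes moved by less than the SD between mice in every alternative, but scaling to the array median, which shifted the median of all probes from 0.002 to 0.050, put complexes I, III and V above 0 (0.026, 0.022 and 0.027), as some fits without 1 mouse did (up to 0.011, 0.019 and 0.007). Complex IV was at -0.015 with the deposited values. Complex II ran from -0.099 to -0.046 without 1 mouse. Of 54 named genes under the alternatives, 26 turned sign in at least 1, all with a reported size of at most 0.078. With 4 mice a group, the unadjusted 95% interval of a subunit reached a median of 0.18 to either side, and differences of -0.28 (Ndufv3) and -0.54 (Cox7a1) did not pass the adjusted threshold.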
